A study of Saccharomyces cerevisiae with 24 samples.

Results

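The genes described here are the mating-type gene entries of the 3 mating-type loci of budding yeast and the 4 genes transcribed specifically in α cells. They were chosen by their systematic names and make up 10 of the 6205 open reading frames in the table. HMLALPHA1 (YCL066W) and HMLALPHA2 (YCL067C) stand for the silent HML locus, and HMRA1 (YCR097W) and HMRA2 (YCR096C) for the silent HMR locus. MATALPHA1 (YCR040W) and MATALPHA2 (YCR039C) stand for the expressed MAT locus as it is in α cells. All 3 loci are on chromosome III. The α-specific genes are SAG1 (YJR004C, chromosome X), STE3 (YKL178C, chromosome XI), MF(ALPHA)1 (YPL187W, chromosome XVI) and MF(ALPHA)2 (YGL089C, chromosome VII). All 10 had enough values to be tested.

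Mating type in this yeast is set by the gene pair present at MAT on chromosome III. HML and HMR near the ends of the same chromosome carry complete copies of such genes that are kept silent by the Sir proteins. The α1 protein, together with Mcm1, switches on the α-specific genes, the α2 protein represses the a-specific genes, and a1 with α2 represses the haploid-specific genes. In a cell whose silent loci become transcribed, a1 and α2 can be present at once. DOT4, named UBP10 in the reference annotation (YNL186W), encodes a deubiquitinase of histone H2B, and its name comes from disruption of telomeric silencing.

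Each of the 24 arrays compared total RNA from a strain with total RNA from UCC6408, whose DOT4 gene carries a 6Myc epitope tag. The compared strains were UCC6406 with the 6Myc-tagged allele dot4-1, UCC6407 with the 6Myc-tagged allele dot4-5, UCC6435, which is labelled a dot4 null, and UCC6432 with DOT4 lacking the tag. All were grown in YEPD, a rich glucose medium. A strain has 3 numbered sets, and a set holds 2 arrays with the dyes exchanged, so that 6 arrays stand behind every strain mean. Not given in the sources used here are the nature of the dot4-1 and dot4-5 changes, the mating type and other markers of the strains, and whether sets were separate cultures. Without that last point, p-values measure only how sets differ from each other, and this spread may be technical. The file holds ratios without intensities, so neither the level of a gene nor its signal over background is known, and the number of arrays limits the precision.

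All values are log2 ratios of the compared strain to DOT4-6Myc, a direction that is likely but not certain. Taken as Cy5 over Cy3 in the order the labels give, UBP10 would be raised on 6 of 6 arrays of the strain labelled null, so every array was turned. Under the order of the labels the sign of every ratio to DOT4-6Myc and of every difference between strains below is exchanged. In the turned direction UBP10 stood at -4.69 ± 0.37 (SD, n = 3 sets) in the strain labelled null, 25.8-fold lower than in DOT4-6Myc (adjusted p = 1.22e-11, limma with Benjamini-Hochberg adjustment over 6195 genes). It stood at -0.62 ± 0.054 in dot4-1 (adjusted p = 7.61e-05), at -0.24 ± 0.025 in dot4-5 (adjusted p = 0.817) and at -0.17 ± 0.081 in untagged DOT4 (adjusted p = 0.202). All 4 comparisons share the reference strain, and all adjusted p-values below come from the same fit, in which a gene was called at an adjusted p under 0.05.

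The clearest values among the 10 genes were those of HMRA1, HMRA2 and SAG1, which were higher in dot4-1 and in the strain labelled null. In dot4-1, 5 of the 10 genes were called, with HMRA1, HMRA2 and SAG1 higher and STE3 and MF(ALPHA)1 lower. In that comparison 73.4% of all genes were called, 35.9% higher and 37.5% lower. For the strain labelled null, 5 were called, with HMRA1, HMRA2 and SAG1 higher and MATALPHA1 and MF(ALPHA)2 lower, against 63.4% of all genes (30.7% higher, 32.7% lower). In untagged DOT4, 2 were called, HMRA2 and HMLALPHA2, both higher, against 25.8% of all genes (11.2% higher, 14.6% lower). In dot4-5 limma called 0 of the 10 genes, against 1.03% of all genes. At an unadjusted p under 0.05 it was also 0 of the 10 in dot4-5, against 269 of all genes.

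Counted in either direction, the shares called among the 10 genes did not exceed the shares among all genes in any of the 4 comparisons. The median size of the log2 ratio over the 10 genes was 0.17 in dot4-1, where it was 0.22 over all genes tested. It was 0.12 against 0.17 in the strain labelled null, 0.032 against 0.027 in dot4-5 and 0.073 against 0.076 in untagged DOT4. No mean of the 10 genes in any strain exceeded the 0.46 of SAG1 in dot4-1, a 1.38-fold difference.

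**Figure D1:**
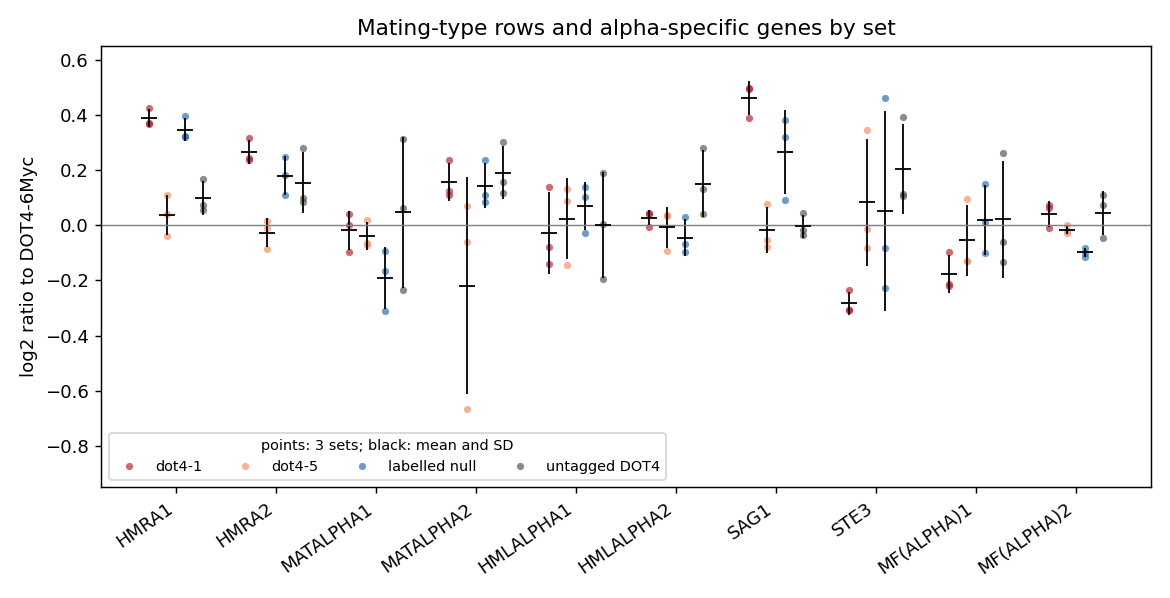
Log2 ratio to DOT4-6Myc (vertical axis) of the 10 genes in the 4 strains, with 1 point for each set mean of 2 dye-exchanged arrays and black lines for the mean and SD of the 3 sets. HMRA1 lies between 0.32 and 0.42 in all 6 sets of dot4-1 and the strain labelled null, and the lowest MATALPHA2 point is set 3 of dot4-5 at -0.67.

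HMRA1, at HMR, encodes a1, the partner of α2 in repression of haploid-specific genes. In dot4-1 its set means were 0.37, 0.42 and 0.37, a mean of 0.39 ± 0.032 (SD, n = 3 sets) or 1.31-fold (adjusted p = 1.86e-06). The strain labelled null gave 0.32, 0.32 and 0.39, a mean of 0.35 ± 0.042 or 1.27-fold (adjusted p = 7.13e-06). The 6 arrays of each strain were all above 0, from 0.35 to 0.43 in dot4-1 and from 0.26 to 0.41 in the strain labelled null.

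In dot4-5 the HMRA1 set means were 0.043, -0.039 and 0.11, with a mean of 0.037 and a 95% interval from -0.043 to 0.12. In untagged DOT4 they were 0.054, 0.17 and 0.075, with a mean of 0.099 ± 0.060 and an adjusted p of 0.0702. Every set of dot4-1 and of the strain labelled null was above every set of these other strains. Among all genes, the size of the HMRA1 change stood at the 75.0th percentile in dot4-1 and the 79.7th percentile in the strain labelled null.

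HMRA2 is the a2 reading frame, for which no function is established. Its set means were 0.24, 0.32 and 0.24 in dot4-1, a mean of 0.27 ± 0.044 or 1.20-fold (adjusted p = 0.000150). The strain labelled null gave 0.11, 0.18 and 0.25, a mean of 0.18 ± 0.070 (adjusted p = 0.00342). In untagged DOT4 they were 0.084, 0.28 and 0.098, a mean of 0.15 ± 0.11 (adjusted p = 0.0215). The sets of the strain labelled null and of untagged DOT4 overlapped, while all 3 sets of dot4-5, at -0.011, -0.087 and 0.015, lay below all sets of the other strains. The call in the strain labelled null was lost when arrays were scaled to a common spread (0.12, adjusted p = 0.0685) and on the Cy3 arrays alone (0.10, adjusted p = 0.0826). The call in untagged DOT4 was lost without set 2 (0.091, adjusted p = 0.213), without centring of the arrays (0.076, adjusted p = 0.387) and in a fit of that strain alone (adjusted p = 0.0541).

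The gene copies at HML and at MAT in an α cell encode the same proteins from the same sequence. The a2 frame at HMR corresponds to the end of the α2 gene. Probe sequences were not used here, so signal at the HML entries, the MAT entries and HMRA2 may come from any copy, and these entries are uncertain as measures of 1 locus. In an a cell, MAT lacks the α genes of the MATALPHA entries, and HMRA1 cannot be told apart from the a1 gene at MAT. The mating type of the strains is not given here. In these bulk samples fewer cells of a type and less RNA per cell cannot be told apart either.

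MATALPHA1 and HMLALPHA1, the entries for the α1 activator, differed more between dyes than between strains. With dot4-1 in Cy5, MATALPHA1 read 0.26, 0.33 and 0.41, and with dot4-1 in Cy3 it read -0.26, -0.25 and -0.60. For the strain labelled null the readings were 0.63, 0.49 and 0.27 in Cy5 and -0.96, -0.67 and -0.89 in Cy3. The means of the 2 dyes had opposite signs in 4 of 4 strains for MATALPHA1 and also in 4 of 4 for HMLALPHA1.

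The dye component is the part of a gene's ratio that follows the dye and not the strain. It is given in the orientation of the deposited ratios before turning, so its sign does not depend on the direction chosen above. Averaged over the strains it was -0.38 for MATALPHA1, at the 1.17th percentile of 6176 genes, and -0.26 for HMLALPHA1, at the 2.70th percentile. For HMRA1 and HMRA2 it was -0.032 and -0.028. Opposite signs in the 2 dyes occurred in 21 of the 40 combinations of a gene and a strain. HMRA2 and MATALPHA2 had 0 such strains each, and HMRA1 and STE3 had 1 each.

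**Figure D2:**
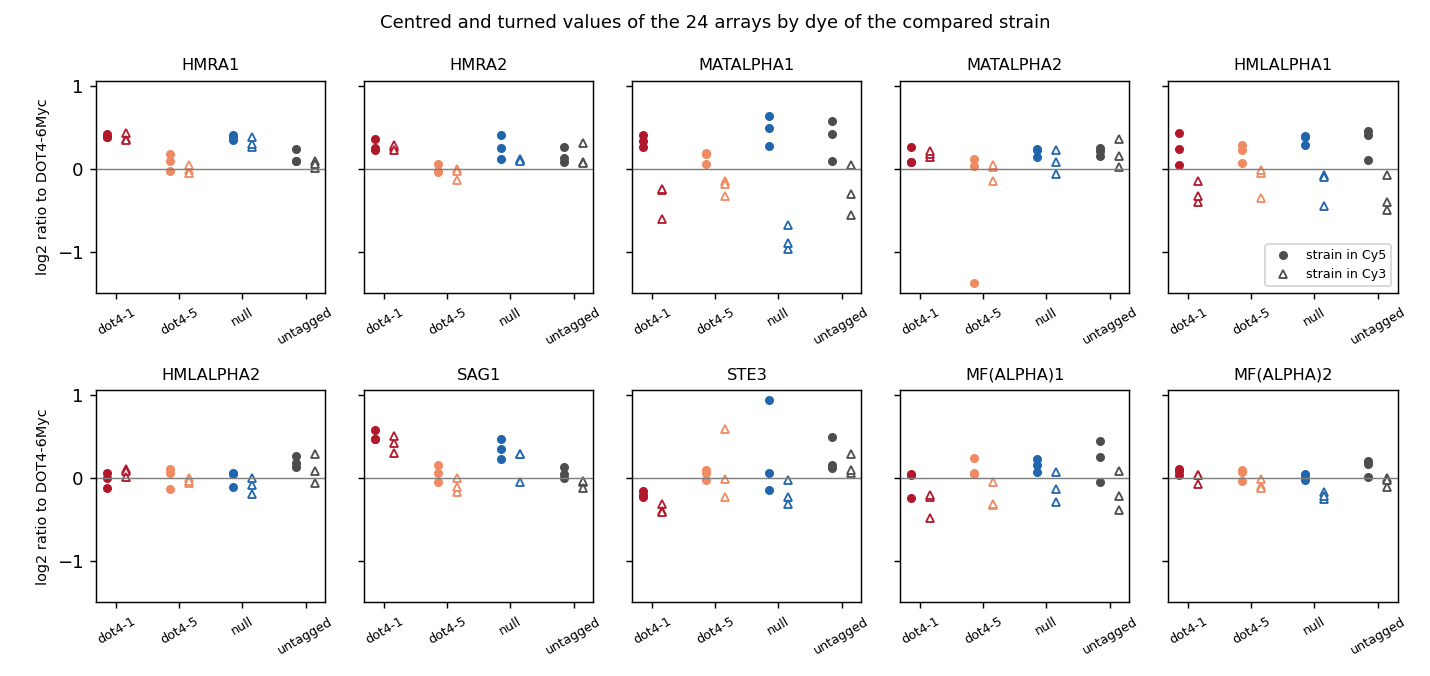
Log2 ratio to DOT4-6Myc (vertical axis) of each of the 10 genes on single arrays, with filled circles for the 3 arrays of a strain in Cy5 and open triangles for the 3 in Cy3. For MATALPHA1 and HMLALPHA1 the circles lie above the triangles in all 4 strains, and the lowest point of all is MATALPHA2 in dot4-5 at -1.38.

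Averaging the dyes left MATALPHA1 at -0.17, -0.092 and -0.31 in the 3 sets of the strain labelled null, a mean of -0.19 ± 0.11 (adjusted p = 0.0465). This call was lost in 14 of 20 alternative settings. It turned to 0.46 on the Cy5 arrays alone (adjusted p = 0.000294), and it was lost without each of the 3 sets of the strain labelled null in turn (highest adjusted p = 0.265, without set 3). In the other strains MATALPHA1 was not called, with means of -0.018 in dot4-1, -0.040 in dot4-5 and 0.047 in untagged DOT4. HMLALPHA1 was called in 0 of the 4 strains, with means from -0.028 to 0.071 and SDs from 0.087 to 0.19.

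MATALPHA2 and HMLALPHA2 encode the α2 repressor. MATALPHA2 set means were 0.11, 0.13 and 0.24 in dot4-1, a mean of 0.16 ± 0.068 (adjusted p = 0.181). They were 0.11, 0.086 and 0.24 in the strain labelled null (mean 0.14, adjusted p = 0.237) and 0.16, 0.30 and 0.12 in untagged DOT4 (mean 0.19, adjusted p = 0.201). All 9 of these set means were above 0.

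In dot4-5 the MATALPHA2 set means were 0.071, -0.060 and -0.67. The last rests on 1 array, set 3 with dot4-5 in Cy5, which read -1.38, while its dye-exchanged partner read 0.045. Because the strains share 1 estimate of the spread, this set also widened the errors of the other strains. Without it, MATALPHA2 stood at 0.0055 in dot4-5 and was called in dot4-1 (0.16, adjusted p = 0.0125), in the strain labelled null (0.14, adjusted p = 0.0230) and in untagged DOT4 (0.19, adjusted p = 0.0157).

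HMLALPHA2 was called in untagged DOT4, where its sets stood at 0.039, 0.28 and 0.13, a mean of 0.15 ± 0.12 (adjusted p = 0.0305). Set 2 was the highest. Without set 2 the value was 0.086 (adjusted p = 0.275), without set 3 it was 0.16 (adjusted p = 0.0934), and without centring it was 0.072 (adjusted p = 0.435). The call was also lost on the Cy3 arrays alone (0.11, adjusted p = 0.201) and in a fit of that strain alone (adjusted p = 0.0677). In dot4-1, dot4-5 and the strain labelled null its means were 0.026, -0.0072 and -0.045, with no call.

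Of the 4 α-specific genes, SAG1 was called higher in 2 strains and the other members were each called lower in 1 strain. SAG1 encodes α-agglutinin, the cell surface adhesin of α cells. Its set means in dot4-1 were 0.50, 0.39 and 0.49, a mean of 0.46 ± 0.062 or 1.38-fold (adjusted p = 6.58e-06), and in the strain labelled null they were 0.38, 0.093 and 0.32, a mean of 0.26 ± 0.15 (adjusted p = 0.000761). In dot4-5 they were -0.054, 0.077 and -0.078 and in untagged DOT4 0.043, -0.017 and -0.036, with no call in either. The sets of dot4-1 lay above all sets of dot4-5 and untagged DOT4. Set 2 of the strain labelled null, with 1 of its arrays at -0.045, came close to the highest dot4-5 set.

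STE3 encodes the receptor through which α cells sense a-factor. Its set means in dot4-1 were -0.24, -0.31 and -0.31, a mean of -0.28 ± 0.042 (adjusted p = 0.0366), and all 6 arrays were below 0. This call was lost without each dot4-1 set in turn (adjusted p = 0.0693, 0.113 and 0.116), after scaling to a common spread (adjusted p = 0.298) and on the Cy5 arrays alone (adjusted p = 0.243). STE3 varied widely elsewhere. The sets of the strain labelled null stood at 0.46, -0.082 and -0.23, where the first holds 1 Cy5 array at 0.94. In dot4-5 they stood at -0.013, -0.083 and 0.35 and in untagged DOT4 at 0.39, 0.11 and 0.11.

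MF(ALPHA)1 and MF(ALPHA)2 encode the precursors of the α-factor pheromone. MF(ALPHA)1 read -0.097, -0.21 and -0.22 in the sets of dot4-1, a mean of -0.18 ± 0.069 (adjusted p = 0.0436), a call lost in 10 of 20 alternative settings. These included sets 2 and 3 of dot4-1 (adjusted p = 0.150 and 0.162), sets 1 and 3 of dot4-5 (0.0515 and 0.0519), set 2 of the strain labelled null (0.0545) and set 2 of untagged DOT4 (0.0501), each left out alone. Its means in the other strains lay between -0.055 and 0.022, with no call.

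MF(ALPHA)2 read -0.12, -0.099 and -0.082 in the sets of the strain labelled null, a mean of -0.099 ± 0.016 (adjusted p = 0.0261). The mean was 0.016 with that strain in Cy5 and -0.21 with it in Cy3, and the call was lost without each of the strain's 3 sets in turn (adjusted p = 0.0703, 0.0847 and 0.0566). In the other strains its means lay between -0.016 and 0.046, with no call.

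By contrast, the calls of HMRA1 and SAG1 in dot4-1 and in the strain labelled null, and of HMRA2 in dot4-1, held under all 20 alternatives tried for each. Over these, HMRA1 ranged from 0.23 to 0.40 in dot4-1 (highest adjusted p = 0.00134) and from 0.24 to 0.38 in the strain labelled null (0.00362). SAG1 ranged from 0.28 to 0.51 (0.00176) and from 0.18 to 0.35 (0.0334). Of the 20 alternatives, 12 left out 1 set. Leaving out a set of another strain could not move the mean of the strain in question, only its error and adjusted p.

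Differences between strains were tested in the same fit for 6 pairs of strains. HMRA1 was higher in dot4-1 than in dot4-5 by 0.35 (95% interval 0.24 to 0.46, adjusted p = 0.000156) and higher than in untagged DOT4 by 0.29 (adjusted p = 0.000453). It was higher in the strain labelled null than in dot4-5 by 0.31 (adjusted p = 0.000573) and higher than in untagged DOT4 by 0.25 (adjusted p = 0.00160). After scaling to a common spread these 4 HMRA1 differences were not called (adjusted p = 0.0868, 0.182, 0.0858 and 0.161). HMRA2 was higher in dot4-1 than in dot4-5 by 0.29 (adjusted p = 0.00153) and in the strain labelled null than in dot4-5 by 0.21 (adjusted p = 0.0160). The latter call was lost without set 2 of dot4-5 (adjusted p = 0.0691) or set 3 of the strain labelled null (adjusted p = 0.0622), without centring (0.0666), after scaling (0.0836) and on the Cy3 arrays alone (0.0881).

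SAG1 exceeded its dot4-5 value by 0.48 in dot4-1 (adjusted p = 0.000179) and by 0.28 in the strain labelled null (adjusted p = 0.00756). The corresponding differences from untagged DOT4 were 0.46 (adjusted p = 0.000161) and 0.27 (adjusted p = 0.00800). After scaling to a common spread the SAG1 differences of the strain labelled null from dot4-5 (0.0685) and from untagged DOT4 (0.0762) had adjusted p-values above the threshold. STE3 was lower in dot4-1 than in untagged DOT4 by 0.49 (adjusted p = 0.0174, and 0.0755 without set 1 of untagged DOT4). HMLALPHA2 was lower in the strain labelled null than in untagged DOT4 by 0.20 (adjusted p = 0.0228), and MF(ALPHA)2 by 0.14 (adjusted p = 0.0259). The HMLALPHA2 difference was not called without set 1 or 3 of the strain labelled null or set 2 of untagged DOT4 (highest adjusted p = 0.107). That of MF(ALPHA)2 was not called without set 2 of the former or set 2 or 3 of the latter (highest adjusted p = 0.106). Over all 20 alternatives the HMLALPHA2 call was lost in 7 (highest adjusted p = 0.409). The MF(ALPHA)2 call was lost in 6, and its sign was reversed in 1 (highest adjusted p over the 20 = 0.671). The MATALPHA2 difference between dot4-1 and dot4-5, 0.38 (adjusted p = 0.0390), fell to 0.15 (adjusted p = 0.117) without set 3 of dot4-5, and its call was lost without any of 5 single sets.

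In all, 4 of the 10 genes differed between dot4-1 and dot4-5, where 61.0% of all genes did. From untagged DOT4, 3 differed in dot4-1 (62.8% of all genes), 4 in the strain labelled null (54.9%) and 0 in dot4-5 (13.1%). Between dot4-5 and the strain labelled null 3 differed (47.5%). Between dot4-1 and the strain labelled null limma called 0 of the 10, where 9.81% of all genes were called. There HMRA1 was higher in dot4-1 by 0.042 (95% interval -0.072 to 0.16) and SAG1 by 0.20 (95% interval 0.037 to 0.36, adjusted p = 0.0996), and the missing calls do not show that the strains were alike. For these strains alone all 3 same-numbered sets correlated positively, but only set 1 stood apart from the other numbers. Set 3 of dot4-1 correlated with set 2 of the strain labelled null at 0.32 and with its set 3 at 0.317. A pairing of sets 2 and 3 by number is therefore not shown. With the set number as a replicate block in a fit of these strains only, limma called 1 of the 10 genes, MF(ALPHA)1, which was lower in dot4-1 by 0.25, 0.22 and 0.12 within the 3 sets (mean -0.20, 95% interval -0.32 to -0.073, adjusted p = 0.0491). In that fit SAG1 was higher in dot4-1 by 0.12, 0.30 and 0.18 within the sets (adjusted p = 0.0547), and MATALPHA1 by 0.17, 0.13 and 0.22 (adjusted p = 0.0590).

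The open reading frames next to the 3 loci were read as context, taken by systematic name on either side of each locus, 18 in all. Among them YCR041W overlaps MATALPHA1. YCL065W and YCR097W-A are absent from the reference annotation, and whether they overlap a mating-type entry was not checked. In dot4-1, 10 of the 18 were called higher and 1 lower, and in the strain labelled null 11 were called higher and 1 lower. In untagged DOT4 2 were called higher, 11.1% of the neighbours against 25.8% of all genes called in either direction. In dot4-5 0 were called, against 1.03% of all genes. The shares called in either direction, 61.1% in dot4-1 and 66.7% in the strain labelled null, were near the 73.4% and 63.4% over all genes. By direction the calls of the neighbours were mostly higher. Among all genes 35.9% were called higher and 37.5% lower in dot4-1, and 30.7% and 32.7% in the strain labelled null. The median ratio of these neighbours was 0.29 and 0.17, where the median over all genes was -0.0063 and -0.010.

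Next to HMR, OCA4 stood at 0.35 ± 0.030 in dot4-1 and 0.40 ± 0.030 in the strain labelled null (adjusted p = 3.84e-06 and 2.43e-06). YCR097W-A, on the other side of HMRA1 in the order of names, stood at 0.35 and 0.31 (adjusted p = 2.49e-05 and 0.000100). These values are close to those of HMRA1 itself. Of the 7 neighbours of HMR, 4 were called higher in each of the strains, and CDC39, a subunit of the CCR4-NOT complex, was called lower in dot4-1 (-0.090, adjusted p = 0.0467), a call lost or reversed in 14 of the 20 alternatives (0.049 on the Cy3 arrays alone).

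Next to MAT, TAF2, a subunit of the general transcription factor TFIID, stood at 0.41 in dot4-1 and 0.28 in the strain labelled null (adjusted p = 2.07e-05 and 0.000574). PHO87, a phosphate transporter, stood at 0.30 and 0.33. YCR041W, which overlaps MATALPHA1 in the reference annotation, was called higher in both strains (0.29 and 0.17, adjusted p = 2.37e-05 and 0.00199), while MATALPHA1 was not called higher in either. The YCR041W call in the strain labelled null was lost on the Cy3 arrays alone (0.12, adjusted p = 0.062) and in a fit of that strain alone (adjusted p = 0.0541). MATALPHA1 in that strain averaged 0.46 in Cy5 and -0.84 in Cy3, which limits the contrast of these entries. By the W in their names, YCR041W and MATALPHA1 (YCR040W) lie on the same strand. Probe sequences were not used here.

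CHA1, which lies beside HML and encodes a serine and threonine deaminase, had the largest change of the 18 neighbours. Its sets stood at 0.98, 1.18 and 1.30 in dot4-1, a mean of 1.15 ± 0.16 or 2.23-fold (adjusted p = 5.52e-08). The strain labelled null gave 0.76, 1.10 and 1.14, a mean of 1.00 ± 0.21 (adjusted p = 2.44e-07), against -0.079 in dot4-5 and 0.072 in untagged DOT4. YCL065W, named between CHA1 and the HML entries and absent from the reference annotation, stood at 0.31 and 0.22 (adjusted p = 0.000272 and 0.00409), but on the Cy3 arrays alone it was not called in either strain (adjusted p = 0.309 and 0.125). Whether it overlaps HMLALPHA1 was not checked. On the other side of CHA1, VAC17 stood at 0.29 and 0.22. HMLALPHA1 and HMLALPHA2 were not called in those strains, nor were YCL068C and VBA3 beyond them.

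**Figure D3:**
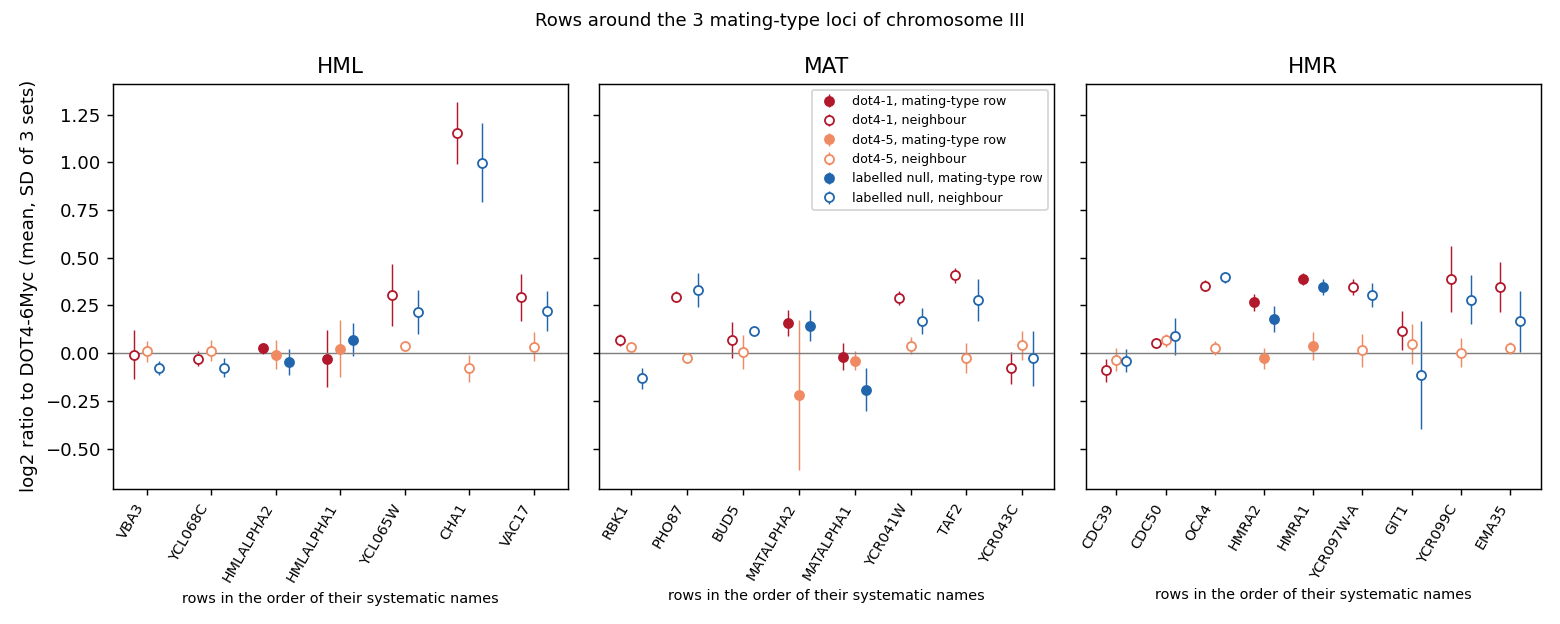
Log2 ratio to DOT4-6Myc (vertical axis, mean and SD of 3 sets) of open reading frames at HML, MAT and HMR in the order of their systematic names, for dot4-1, dot4-5 and the strain labelled null. Filled points are mating-type entries and open points are neighbours, and CHA1 beside HML reaches 1.15 in dot4-1 and 1.00 in the strain labelled null.

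The 7 a-specific genes, which α2 represses and which mark a cells, were called in both directions. In dot4-1, 0 were called higher and 3 lower: AGA2, the binding subunit of a-agglutinin, at -0.38, ASG7 at -0.37 and MFA1, an a-factor precursor, at -0.19 (adjusted p = 0.0189, 0.000575 and 0.0464). For the strain labelled null, 2 were called higher, the α-factor receptor STE2 at 0.38 and the a-factor exporter STE6 at 0.22 (adjusted p = 0.00759 and 0.00202), and 0 lower. The shares called, 42.9% in dot4-1 and 28.6% in the strain labelled null, were below the 73.4% and 63.4% of all genes. Of all 4 α-specific genes no mean exceeded 1.38-fold in size, and of the 7 a-specific genes none exceeded 1.30-fold. In dot4-5 and untagged DOT4 limma called 0 of the 7, against 1.03% and 25.8% of all genes. At an unadjusted p under 0.05 it called 0 and 2, against 269 and 2306 of the 6195 genes.

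Set 1 stood apart for several a-specific genes. STE2 read 0.54 in set 1 of dot4-1 and 0.021 and 0.039 in sets 2 and 3, and it read 0.73, 0.19 and 0.23 in the strain labelled null. AGA2 read 0.046, -0.67 and -0.50 in dot4-1 and 0.40, -0.28 and -0.22 in the strain labelled null. Without set 1 of the strain labelled null the STE2 call there was lost (0.21, adjusted p = 0.0838). The AGA2 call in dot4-1 was lost without its set 2 (-0.23, adjusted p = 0.183) or its set 3 (-0.31, adjusted p = 0.110), and the MFA1 call was lost in 12 of 20 alternatives, 8 of which leave out 1 set. HMRA1 and SAG1 showed no such separation of set 1, but it was not confined to a-specific genes. FAR1 read 0.70, 0.21 and 0.23 in dot4-1, and SIR3 read -0.098, 0.32 and 0.40 in the strain labelled null. Over genes with values on all arrays, deviations from the strain means in set 1 of dot4-1 were correlated with those in the strain labelled null. The r was 0.67 for its set 1, -0.56 for its set 2 and -0.52 for its set 3. What set 1 differed in was not tested.

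Of the 12 haploid-specific genes, which a1 and α2 repress together, 7 were called higher and 2 lower in dot4-1, and 7 higher and 1 lower in the strain labelled null. In either direction this was 75.0% and 66.7% of the list, close to the 73.4% and 63.4% of all genes. By direction, 35.9% of all genes were called higher and 37.5% lower in dot4-1, and 30.7% and 32.7% in the strain labelled null. The median ratio of the list was 0.19 and 0.21. The lower call of NEJ1 in dot4-1 (-0.082, adjusted p = 0.0443) was lost in 12 of 20 alternatives. SST2, a regulator that turns off pheromone signalling, stood at 0.71 in dot4-1 and 0.76 in the strain labelled null (adjusted p = 8.51e-07 and 7.44e-07), and GPA1, the G protein α subunit, at 0.53 and 0.42. RME1, a repressor of meiosis, was the lowest at -0.65 and -0.31 (adjusted p = 1.74e-07 and 8.11e-05). In untagged DOT4, 0 were called higher and 4 lower, namely FUS3, SST2, STE4 and STE5 (-0.24, -0.22, -0.14 and -0.11). This was 33.3% of the list, where 25.8% of all genes were called, 11.2% higher and 14.6% lower. Without set 2 or set 3 of untagged DOT4 the calls of SST2, STE4 and STE5 were lost (highest adjusted p = 0.131, 0.188 and 0.188).

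The 3 genes for processing of the α-factor precursor changed little. In dot4-1, 0 of 3 were called, against 73.4% of all genes, with ratios from -0.044 to -0.0048. In the strain labelled null 2 were called, 66.7% of the list against 63.4% of all genes. For the strain labelled null, KEX2, a protease gene, was at 0.11 (adjusted p = 0.0433) and turned to -0.032 on the Cy5 arrays alone, and this call was lost without any of 7 single sets (highest adjusted p = 0.302). KEX1, a carboxypeptidase gene, was at -0.18 (adjusted p = 0.0155), and at -0.068 (adjusted p = 0.162) without set 1 of that strain.

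Among 5 regulators of mating-type transcription, 3 were called higher and 2 lower in each of dot4-1 and the strain labelled null, which is all 5 where 73.4% and 63.4% of all genes were called. MCM1, the partner of α1 and of α2, stood at 0.21 and 0.44 (adjusted p = 0.000166 and 7.42e-07). CYC8 stood at 0.35 and 0.24 and TUP1, with which it forms the corepressor recruited by α2, at -0.23 and -0.17. KAR4, a factor for karyogamy genes, stood at 0.60 and 0.54, and ASH1, a repressor of the HO endonuclease gene, at -0.15 and -0.19. Without set 1 of the strain in question the ASH1 calls were lost (-0.084 and -0.087, adjusted p = 0.293 and 0.179), and in dot4-1 the call was lost in 9 of 20 alternatives, 6 of which leave out 1 set. Without set 2 or set 3 of the strain labelled null its CYC8 (highest adjusted p = 0.0925) and TUP1 (0.174) calls were lost, and TUP1 there read 0.0013 on the Cy3 arrays alone.

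Of 18 genes for factors that silence HML and HMR, 14 were called higher and 0 lower in dot4-1, where the median of the list was 0.28. The strain labelled null had 10 called higher and 0 lower, with a median of 0.15. In either direction this was 77.8% of the list in dot4-1 and 55.6% in the strain labelled null, near the 73.4% and 63.4% of all genes. By direction, 35.9% of all genes were called higher and 37.5% lower in dot4-1, and 30.7% and 32.7% in the strain labelled null. The calls of this list were all higher in these strains, unlike those of all genes. RAP1 and ABF1, which bind the silencers, stood at 0.53 and 0.52 in dot4-1 and at 0.52 and 0.34 in the strain labelled null. Next in size in the strain labelled null were DOT1 (0.34, adjusted p = 0.000488) and ORC3 (0.25, adjusted p = 3.40e-05). Both calls held under all 20 alternatives. SIR3, a structural component of silent chromatin, stood at 0.49 in dot4-1 (adjusted p = 0.000140) and 0.21 in the strain labelled null (adjusted p = 0.0399), and ORC1 of the origin recognition complex at 0.48 and 0.17. Without set 2 or set 3 of the strain labelled null these last SIR3 and ORC1 calls were lost (highest adjusted p = 0.326 and 0.324), that of SIR3 also without any of 4 single sets of other strains (highest adjusted p = 0.0519), and ORC1 there read -0.018 on the Cy3 arrays alone. SIR1, which acts at HML and HMR, was called in dot4-1 (0.39, adjusted p = 6.46e-05). That call was lost on the Cy3 arrays alone (0.21, adjusted p = 0.0640), and SIR1 was not called in the strain labelled null (0.075, adjusted p = 0.273). SIR2 stood at -0.0045 in dot4-1 and 0.011 in the strain labelled null, and SIR4 at 0.12 and -0.070, with no call in either strain. In untagged DOT4, ABF1 (0.29) and ORC3 (0.14) were called higher and SAS5 (-0.10) lower, with ORC3 lost without set 1 of that strain (adjusted p = 0.0592) and SAS5 lost in 9 of 20 alternatives. The calls in untagged DOT4 were 16.7% of the list, against 25.8% of all genes. In dot4-5 0 of these 18 were called, against 1.03% of all genes.

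**Figure D4:**
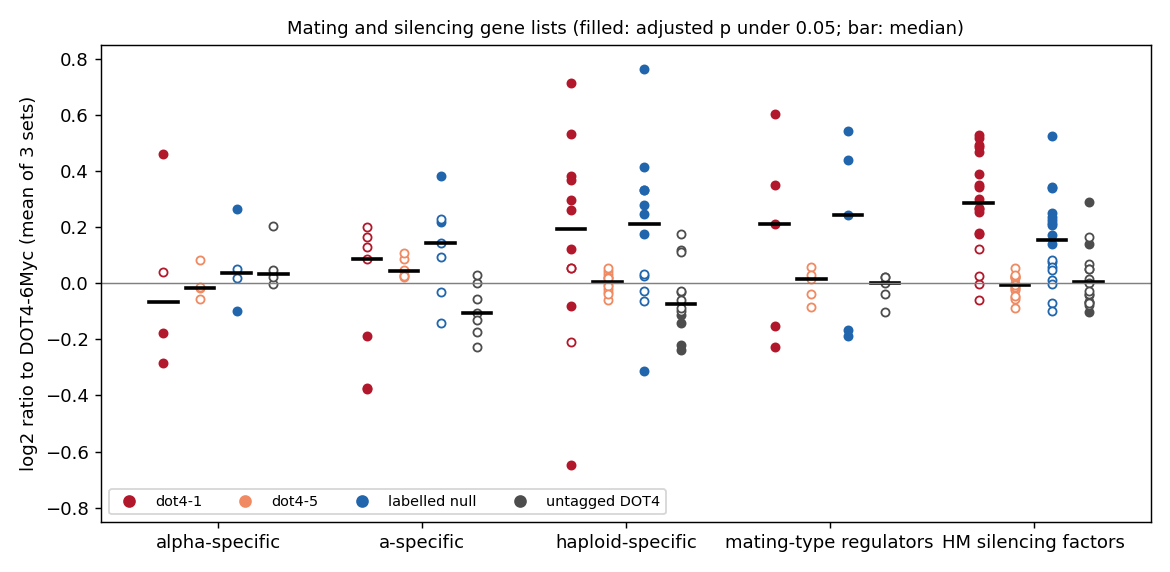
Mean log2 ratio to DOT4-6Myc over 3 sets (vertical axis) of each gene in 5 gene lists, for the 4 strains, with filled points for called genes and a bar for the median of a list. The a-specific genes lie on both sides of 0 in dot4-1, and the silencing factors called in dot4-1 all lie above 0.

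Across the 12 set means, HMRA1 and HMRA2 moved together with Pearson's r of 0.83 and Spearman's rho of 0.87, and HMRA1 and SAG1 with an r of 0.82. The corresponding r was 0.47 (rho 0.43) for MATALPHA1 with HMLALPHA1 and 0.20 (rho 0.46) for MATALPHA2 with HMLALPHA2, whose coding sequences are copies of each other. For MATALPHA2 with HMRA2 the r was 0.55 and the rho 0.71. The values with MATALPHA2 include set 3 of dot4-5, with its array at -1.38. These are descriptions over 12 points that share strains, sets and the reference RNA. Among 6176 genes the ones most like HMRA1 over the 12 set means were YPL035C, SHE3 and YPL108W (r of 0.98, 0.97 and 0.97), and those most like SAG1 were ART5, PTP3 and DDI3 (0.95 each). For HMRA2 they were USE1, PBP1 and PSY3 (0.96, 0.95 and 0.94). For STE3 they were ERV14, CMD1 and SPC25 (0.94, 0.92 and 0.91). The remaining genes called in at least 1 strain had their closest genes at 0.91 (ATG17, for MATALPHA1), 0.87 (SKA1, for HMLALPHA2), 0.90 (TEF1, for MF(ALPHA)1) and 0.94 (MCM22, for MF(ALPHA)2).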

How the data were processed

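Total RNA of 4 strains was compared with that of DOT4-6Myc on 24 two-colour arrays, 6 a strain. The authors deposited 1 table of log2 ratios, 1 value per array and open reading frame, with 83 of 148920 cells empty. Per the labels the ratios are Cy5 over Cy3. The labels state no log base, which was read from the values: ratios of 3 and 4 filled 19 and 8 cells as log2, where nearby values filled 0.3 and 0.15 cells on average. Not given in the sources used here are the array type, the scanner, the background correction and the normalization. The dye component correlated at 0.824 to 0.906 between strains over 6176 genes, so the numerator dye was the same on all arrays, and all arrays were turned after the check on UBP10.

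Each array was centred on its median, turned, and averaged with its dye-exchanged partner, which gave 12 set means. In R 4.3.3, limma 3.58.1 fitted a mean per strain to these by lmFit and eBayes, with 8 residual degrees of freedom. A gene needed a value in both orientations in at least 2 of 3 sets of each strain, which left 6195 genes and removed 10. All tests were two-sided. P-values were adjusted by Benjamini-Hochberg over the genes of a comparison, at a threshold of 0.05. The fit was tested on simulated data. Whether set numbers pair samples was checked by correlating deviations from the strain means. Same-numbered sets of dot4-1 and the strain labelled null correlated at 0.672, 0.509 and 0.317. Every other pair of strains had at least 1 such value under 0.1. Sets 2 and 3 of dot4-1 and the strain labelled null also correlated across numbers, at 0.452 and 0.32, so only set 1 stood apart. Only this pair of strains was also compared within sets, an alternative chosen after seeing the data.

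Named genes were the 10 members, UBP10, the 18 neighbours, up to 4 called genes of largest size from each list and strain, and for each called member the 3 genes of highest correlation. SIR1, SIR2 and SIR4 were named after their values were seen. The members and lists were chosen with earlier results of these data known. Symbols were taken from the RefSeq gene table, which lacked YCL065W and YCR097W-A. Alternatives were no centring, scaling to a common spread, either dye alone, separate arrays with a dye term, genes on all arrays, each strain alone, a replicate block, each set left out, and strain names exchanged on the null arrays only.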

Additional observations from a re-analysis of the deposited data

Results flagged for a closer look

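In 3 of 40 groups of 6 arrays, 1 array lay far from the others by Dixon's criterion. Chance gives about 1 in 20 such groups. They were HMRA1 in untagged DOT4, with set 2 in Cy5 at 0.24, MATALPHA2 in dot4-5, with set 3 in Cy5 at -1.38, and STE3 in the strain labelled null, with set 1 in Cy5 at 0.94.

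Several genes differed between strains by a test of the difference, given here as the first strain minus the second, with the strain labelled null written as null. HMRA1 differed by 0.35 between dot4-1 and dot4-5, by 0.29 between dot4-1 and untagged DOT4, by -0.31 between dot4-5 and null and by 0.25 between null and untagged DOT4. HMRA2 differed by 0.29 between dot4-1 and dot4-5 and by -0.21 between dot4-5 and null. SAG1 differed by 0.48 between dot4-1 and dot4-5, by 0.46 between dot4-1 and untagged DOT4, by -0.28 between dot4-5 and null and by 0.27 between null and untagged DOT4. MATALPHA2 differed by 0.38 between dot4-1 and dot4-5, which includes the array at -1.38. STE3 differed by -0.49 between dot4-1 and untagged DOT4. HMLALPHA2 and MF(ALPHA)2 differed by -0.20 and -0.14 between null and untagged DOT4.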

How the results depend on the processing

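The ratios have no intensities behind them, so signal over background is unknown and limits all values. The strain labelled null is written as null here. Scaling the arrays to a common spread left 3 members called in dot4-1 and 2 in the strain labelled null, raised the genes called in dot4-5 from 64 to 353 and put HMLALPHA1 at -0.024 in untagged DOT4. For pairs of strains it gave 2246 genes and 2 members (dot4-1 and dot4-5), 37 genes (dot4-1 and null), 1 member (dot4-1 and untagged), 1920 genes and 0 members (dot4-5 and null), 1608 genes and 1 member (dot4-5 and untagged) and 1 member (null and untagged).

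On the Cy5 arrays alone 458 genes were called in dot4-5, 6 members in untagged DOT4, 339 genes between dot4-1 and null and 2 members between null and untagged. In dot4-1 MATALPHA1 turned to 0.33, HMLALPHA1 to 0.24 and HMLALPHA2 to -0.019. In dot4-5 MATALPHA1 turned to 0.14, HMLALPHA2 to 0.016, SAG1 to 0.056, MF(ALPHA)1 to 0.12 and MF(ALPHA)2 to 0.045. In null MATALPHA1 turned to 0.46, HMLALPHA2 to 0.0005, MF(ALPHA)2 to 0.016 and KEX2 to -0.032, and SAG1 turned to 0.061 in untagged DOT4.

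On the Cy3 arrays alone 8 members were called in dot4-1, 435 genes in dot4-5 and 1 member between dot4-1 and null. CDC39 turned to 0.049 in dot4-1, HMRA1 to -0.005 and HMLALPHA1 to -0.14 in dot4-5. In null HMLALPHA1 turned to -0.21, STE3 to -0.19, MF(ALPHA)1 to -0.12, EMA35 to -0.056, TUP1 to 0.0013, ORC1 to -0.018 and SAS2 to -0.061. In untagged DOT4 MATALPHA1 turned to -0.27, HMLALPHA1 to -0.32, MF(ALPHA)1 to -0.17 and MF(ALPHA)2 to -0.041.

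Without centring 3 members were called in null and 0 in untagged DOT4, 242 genes between dot4-1 and null, and 2 members between null and untagged. HMLALPHA2 turned to 0.0072 in dot4-5, and in untagged DOT4 MATALPHA1 turned to -0.032, HMLALPHA1 to -0.078, MF(ALPHA)1 to -0.057 and MF(ALPHA)2 to -0.033. A fit of each strain alone called 140 genes in dot4-5 and 3 members in null. Separate arrays with a dye term called 1 member each between dot4-1 and null and between dot4-5 and untagged. With names exchanged on the null arrays only, 4835 genes and 3 members differed between dot4-1 and null. HMRA1, HMRA2 and SAG1 then differed by 0.38, 0.15 and 0.25 between dot4-5 and null, and HMRA1, SAG1 and MF(ALPHA)2 by -0.44, -0.26 and 0.053 between null and untagged. The share of higher calls moved from 43.3% to 12.5% in untagged DOT4 without centring, and from 89.1% to 53.0% in dot4-5 after scaling. Without centring it moved from 50.4% to 66.4% (dot4-1 minus untagged), from 62.8% to 88.6% (dot4-5 minus untagged) and from 50.5% to 69.6% (null minus untagged). Without centring, the array medians stay in the ratios, and as deposited these ran from -0.092 to 0.28. What lay behind these medians and behind the shift after scaling was not tested.

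Leaving out 1 set at a time gave 3 to 5 members called in dot4-1 (3 without its set 2 or 3), 3 to 5 in null (3 without each of its sets) and 0 to 3 in untagged DOT4 (0 without its set 2), and 912 to 2090 genes in untagged DOT4 (979 and 912 without its sets 2 and 3). Between pairs it gave 264 to 1130 genes (dot4-1 and null, the ends without set 2 of dot4-1 and set 3 of null), 408 to 1233 genes and 0 to 1 members (dot4-5 and untagged, the ends without set 2 of dot4-5 and set 1 of null) and 2 to 5 members (null and untagged, 2 without set 2 of untagged). Some uncalled values changed sign. MATALPHA1 and HMLALPHA1 ranged from -0.048 to 0.021 and from -0.11 to 0.029 in dot4-1. In dot4-5 HMRA2 ranged from -0.049 to 0.002, HMLALPHA1 from -0.029 to 0.11, HMLALPHA2 from -0.029 to 0.036, MATALPHA2 from -0.36 to 0.0055, SAG1 from -0.066 to 0.012 and STE3 from -0.048 to 0.17. In null STE3 ranged from -0.15 to 0.19 and MF(ALPHA)1 from -0.046 to 0.080. In untagged DOT4 HMLALPHA1 ranged from -0.095 to 0.098, SAG1 from -0.026 to 0.013, MATALPHA1 from -0.086 to 0.19 and MF(ALPHA)1 from -0.099 to 0.10.

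Over all pairs of strains, sets of the same number did not pair. Their deviations correlated from -0.303 to 0.672, over 0.1 in 7 of 18 pairs. A set correlated best with its own number in 12 of 36 cases. For dot4-1 and null only set 1 stood apart by its number. With the replicate block 4589, 64, 3985 and 1719 genes were called in dot4-1, dot4-5, null and untagged DOT4. Of 144 values compared 5 lost their call, MF(ALPHA)1 in dot4-1 among them (-0.18, adjusted p = 0.0613). In the replicate block fit of dot4-1 and null alone, chosen after seeing the data, 866 genes and 1 member differed.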
